A study of Mus musculus with 5 samples.

Results

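The genes described here are 8 carriers of the transmitters glutamate and GABA, chosen by their symbols. They are the plasma membrane glutamate transporters Slc1a1, Slc1a2 and Slc1a3, the vesicular glutamate transporters Slc17a6, Slc17a7 and Slc17a8, the vesicular GABA transporter Slc32a1 and the plasma membrane GABA transporter Slc6a11. All 8 were found among the 55385 genes counted, each under 1 identifier, and all 8 were among the 19768 genes that passed the filter on low counts.

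The study sequenced total RNA of the hippocampus of 3-month-old male C57/bl6 mice, in 5 libraries. The control library came from untreated mouse tissue at 0 h, and the others from mice given kainic acid at 20 mg/kg in PBS into the peritoneum, with 1 library at 1 h, 2 at 4 h and 1 at 8 h after seizures began. Kainic acid is an agonist of a class of ionotropic glutamate receptors and provokes seizures that engage the hippocampus. Whether each library stands for 1 mouse is not given in the sources, so the pair at 4 h is called library 1 and library 2, and p-values measure the spread between these 2 libraries, which may be technical in part. The control had no injection, so kainic acid, the seizures and the injection itself cannot be told apart, and all comparisons share the same control library. The depth, as the sum of gene counts, was 19100374 for the control, 17744508 for the 1 h library, 18250114 and 19109204 for libraries 1 and 2 at 4 h, and 16612225 for the 8 h library. Levels are given as normalized CPM, which is counts per 1000000 after scaling between libraries by TMM (trimmed mean of M-values), and intervals on single libraries cover counting error only, at 95%.

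Glutamate is the main excitatory transmitter of the hippocampus and GABA the main inhibitory one. Vesicular carriers load them into synaptic vesicles, and plasma membrane carriers clear them from the extracellular space after release. Clearance of glutamate is carried out largely by astrocytes, which turn it into glutamine that neurons take up again, and seizures place a heavy load on this cycle.

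Library 1 at 4 h stood apart from the other 4 in markers of tissue outside the hippocampus. The thalamus and habenula list (11 genes) summed to 140 normalized CPM in the control, 147 at 1 h, 503 in library 1 at 4 h, 235 in library 2 and 103 at 8 h. Its most abundant gene was Rora in every library, with 214 normalized CPM in library 1 and 93 or fewer in the others. Prkcd, a kinase gene with high expression in thalamic relay nuclei, had 27.0, 29.1, 199, 79.0 and 23.8 normalized CPM in the same order of libraries. Of its 10 genes with more than 3 counts in a library, 8 were highest in library 1 and 6 were past 2 times the level of library 2, among them Tcf7l2 with 13.1 against 4.18 normalized CPM. Gbx2 had 20 counts in library 1 and 0 to 3 counts elsewhere, and Zic1 was high in both libraries at 4 h. Lhx9 went the other way, with 11.3 normalized CPM in the control, 7.25 in library 1 and 5.18 in library 2. Pou4f1, the gene left out of these tallies, had 0 to 3 counts in all 5 libraries. Over all 11 genes, 10 lay above the control in library 1 (median ratio 3.47) and 7 in library 2 (1.45). At 1 h 7 lay above it (1.05), and at 8 h 3 (0.729). The choroid plexus list (6 genes) showed the opposite pattern to the thalamic sum, with 4002, 1689, 29.3, 4280 and 3113 normalized CPM. All 6 of its genes were lowest in library 1. Its most abundant gene in every library, Ttr, had 16.3 normalized CPM in library 1 and 1573 to 3971 in the others. Markers of hippocampal excitatory neurons (10 genes, the most abundant being Camk2a) were present in all libraries, with sums between 2401 and 2560, but 7 of the 10 were lowest in library 1 and 2 were highest there. Library 2 shared part of this. Neurod6 had 144 normalized CPM in the control, 60.9 in library 1 and 67.1 in library 2, Prox1 had 60.0, 172 and 120, Fibcd1 132, 69.1 and 92.3, and Nrgn 159, 140 and 141. Neurod2 (71.0, 43.4 and 76.4) and Spink8 (14.9, 10.5 and 16.8) were below the control in library 1 and above it in library 2, and Zbtb20 had 331, 613 and 379. Values at 4 h are therefore given for each library, and the 4 h log2 fold changes of the 8 transporter genes also without library 1. The values without library 1 still rest on library 2, whose thalamic sum (235) was also above the control (140).

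Slc17a7 encodes the vesicular glutamate carrier VGLUT1 of most hippocampal and neocortical excitatory neurons (ENSMUSG00000070570.5, GRCm38 chr7:45163949-45176142, plus strand). It had 640 normalized CPM in the control, 613 at 1 h, 506 in library 1 at 4 h, 578 in library 2 and 576 at 8 h. The control was thus the highest of the 5 libraries, and library 1 the lowest. The log2 fold change against the control was -0.06 at 1 h (SE 0.20), -0.24 at 4 h (SE 0.17) and -0.15 at 8 h (SE 0.20), with 95% intervals of -0.56 to 0.44, -0.67 to 0.19 and -0.65 to 0.35. Without library 1 the 4 h value was -0.15. A fall to 0.5 of the control lay outside all 3 intervals, which still held the differences seen as well as 0. The counts of Slc17a7 per count of Camk2a, a kinase gene of the same neurons, were 0.446, 0.427, 0.416, 0.429 and 0.445 in the same order. Within a library this ratio does not depend on the scaling, and the 8 h library and the control had the same ratio within counting error. Library 1 (0.405 to 0.426) was below the control (0.436 to 0.455) by more than counting error, and the intervals at 1 h and in library 2 overlapped that of the control.

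Slc17a6 encodes VGLUT2, the vesicular glutamate carrier of thalamic and other subcortical excitatory neurons and of some hippocampal afferents (ENSMUSG00000030500.6, chr7:51622006-51671119, plus strand). It had 32.7 normalized CPM in the control, 41.4 at 1 h, 99.4 in library 1 at 4 h, 42.6 in library 2 and 29.4 at 8 h. Library 1 was the highest by far, and library 2 lay close to the 1 h library. The ratio to the control was 3.04 in library 1 (95% counting interval 2.77 to 3.33) and 1.30 in library 2 (1.17 to 1.45), and the pair at 4 h lay 2.33-fold apart. With both libraries the log2 fold change at 4 h came to 1.11 (SE 0.51, interval -0.16 to 2.40), with an unadjusted p of 0.0758 and an adjusted p of 0.471 by the quasi-likelihood test of edgeR, Benjamini-Hochberg adjusted. Without library 1 it was 0.38, and without library 2 it was 1.60, both values with no test, since no replicate then remained. With no filter on low counts, where 1300 of 32732 genes were called at 4 h, the same test gave an adjusted p of 0.000518. This was the lowest over all alternatives, whose highest was 1. At 1 h and 8 h the log2 fold changes were 0.34 (SE 0.56) and -0.15 (SE 0.56).

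The library with the high Slc17a6 level was thus the library with the high thalamic marker sum. Counts of Slc17a6 per count of the thalamus and habenula list were 0.234 in the control, 0.282 at 1 h, 0.197 in library 1, 0.182 in library 2 and 0.284 at 8 h. Set against the list sum, Slc17a6 was lower in both libraries at 4 h than in the other 3, but this depended on the marker, as 2 single markers chosen after seeing the data showed. Per count of Prkcd it was 1.21, 1.42, 0.499, 0.540 and 1.23, and per count of Rora it was 0.427 (0.389 to 0.469), 0.476, 0.464 (0.438 to 0.492), 0.458 and 0.526. Against Rora both libraries at 4 h lay above the control, with intervals that overlapped it. The part of these markers in the level of Slc17a6 was not tested. These are bulk libraries, in which fewer cells of a type and less RNA per cell cannot be told apart.

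Slc17a8 encodes VGLUT3, found in small populations of neurons that include some hippocampal interneurons (ENSMUSG00000019935.16, chr10:89574020-89621253, minus strand). Its counts were 139 in the control, 92 at 1 h, 54 in library 1 at 4 h, 128 in library 2 and 92 at 8 h, which made 6.98, 5.23, 3.21, 6.77 and 5.25 normalized CPM. Library 1 was the lowest, and library 2 lay beside the control. The ratio to the control was 0.459 in library 1 (0.329 to 0.633) and 0.969 in library 2 (0.756 to 1.24), a difference between the pair of 2.07-fold. The log2 fold change was -0.41 at 1 h (SE 0.60), -0.47 at 4 h (SE 0.51) and -0.40 at 8 h (SE 0.60), and at 4 h it was -0.04 without library 1 and -1.10 without library 2. At these depths the intervals at 1 h and 8 h, -1.92 to 1.09 at both, hold a rise to 2 times as well as a fall to 0.5 of the control.

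**Figure D1:**
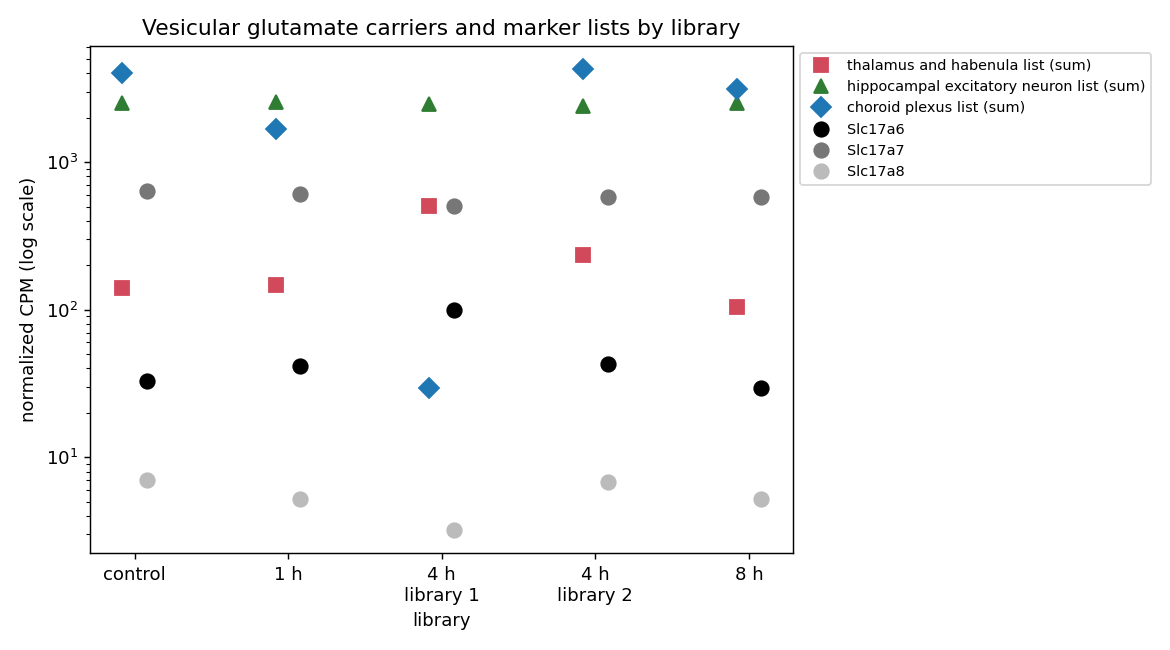
Normalized CPM (log axis) of the vesicular glutamate transporter genes and the summed normalized CPM of 3 marker lists in each of the 5 libraries. In library 1 at 4 h the thalamus and habenula sum (503) and Slc17a6 (99.4) were at their highest, and the choroid plexus sum (29.3) and Slc17a8 (3.21) at their lowest.

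The share of each vesicular glutamate transporter can be read inside a library, as counts per kilobase of exon among the 3 genes. Slc17a7 made up 94.0% in the control (exact 95% interval 93.6 to 94.4), 92.8% at 1 h, 83.1% in library 1 at 4 h, 92.0% in library 2 and 94.2% at 8 h. Slc17a6 held 4.80% (4.45 to 5.18), 6.27%, 16.3% (15.6 to 17.0), 6.78% (6.33 to 7.25) and 4.80% (4.40 to 5.22). The 8 h library therefore had the same split as the control within counting error. At 1 h and in library 2 the share of Slc17a6 lay above that of the control by more than counting error, and library 1 stood far above the rest. Slc17a8 held from 0.601% in library 1 to 1.23% in library 2.

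Of the 8 genes, all had an entry among the RefSeq promoter windows (GRCm38.p6), with 10 windows in all. The 250 bases before the RefSeq start are shown for Slc17a6 and Slc17a7, which lay on opposite sides of the control in both libraries at 4 h, and for Slc1a3, whose pair at 4 h lay close together and above the control (described with the astrocyte carriers). Both vesicular genes lie on the plus strand of chr7, their windows at chr7:51621580-51621829 and chr7:45163671-45163920, and that of Slc1a3 on the minus strand at chr15:8710808-8711057. Capitals mark the letters TGACG, the shorter form of the cyclic AMP response element, on either strand.
Slc17a6: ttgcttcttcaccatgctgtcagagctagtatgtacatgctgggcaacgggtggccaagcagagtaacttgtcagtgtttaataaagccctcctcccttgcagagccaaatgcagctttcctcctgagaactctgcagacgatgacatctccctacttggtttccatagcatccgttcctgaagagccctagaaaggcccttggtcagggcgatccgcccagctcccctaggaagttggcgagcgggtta
Slc17a7: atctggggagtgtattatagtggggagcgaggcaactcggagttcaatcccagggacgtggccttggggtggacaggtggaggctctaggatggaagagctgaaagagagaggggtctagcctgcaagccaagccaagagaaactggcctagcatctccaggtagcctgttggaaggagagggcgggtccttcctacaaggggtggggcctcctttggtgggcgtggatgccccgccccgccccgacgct
Slc1a3: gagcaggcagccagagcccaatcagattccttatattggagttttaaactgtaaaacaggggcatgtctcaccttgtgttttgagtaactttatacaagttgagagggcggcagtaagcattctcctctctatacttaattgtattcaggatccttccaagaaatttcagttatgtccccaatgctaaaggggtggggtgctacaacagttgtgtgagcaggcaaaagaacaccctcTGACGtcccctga
The full element TGACGTCA, which contains TGACG on both strands, and the AP-1 letters TGANTCA were searched in the same way, because the factors that bind them are classic targets of neuronal activity. Neither was in any of the 10 windows, against 1.55% and 6.75% of all 32851 windows. TGACG was in 17.8% of all windows and in 2 of the 10, namely the window of Slc1a3, where it begins 13 bases before the start, and that of a second start of Slc17a6, at chr7:51624387-51624636. The windows shown differ in base composition, with 53.2% G and C for Slc17a6, 61.2% for Slc17a7 and 44.8% for Slc1a3 against a median of 52.4% over all windows.

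Slc1a2 encodes GLT-1, the astrocyte carrier that takes up most extracellular glutamate in the forebrain (ENSMUSG00000005089.15, chr2:102658659-102790784, plus strand). It had 2615 normalized CPM in the control, 2731 at 1 h, 2987 in library 1 at 4 h, 2752 in library 2 and 2640 at 8 h. All 4 libraries after kainic acid lay above the control, by 1.14-fold at most. The log2 fold changes were 0.06 at 1 h (SE 0.20), 0.13 at 4 h (SE 0.17) and 0.01 at 8 h (SE 0.20), with 95% intervals of -0.43 to 0.55, -0.29 to 0.56 and -0.48 to 0.50. The 4 h value was 0.07 without library 1, and scaled by library size alone the value at 1 h turned to -0.01. Each difference was smaller than its SE, and a change by 1.5-fold in either direction lay outside all 3 intervals.

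Slc1a3 encodes GLAST, the astrocyte carrier that is also a feature of radial glia (ENSMUSG00000005360.14, chr15:8634124-8710764, minus strand). It had 509 normalized CPM in the control, 537 at 1 h, 625 in library 1 at 4 h, 590 in library 2 and 579 at 8 h. The control was the lowest of the 5 libraries. Slc1a3 was the member, 1 of 8, whose libraries at 4 h both lay farther from the control than from each other, which with TMM scaling 43% of all genes tested did. Among the 8 it was also the member that did so with RLE scaling and with library size alone. The log2 fold change was 0.08 at 1 h (SE 0.18), 0.26 at 4 h (SE 0.16, interval -0.15 to 0.66; 0.21 without library 1) and 0.18 at 8 h (SE 0.18), with an adjusted p of 0.585 at 4 h by the quasi-likelihood test of edgeR, Benjamini-Hochberg adjusted. Counts of Slc1a3 per count of Slc1a2, which do not depend on the scaling, were 0.195 in the control (0.191 to 0.199), 0.197 at 1 h, 0.209 in library 1, 0.214 in library 2 and 0.219 at 8 h (0.214 to 0.224). This ratio was higher at 4 h and 8 h than in the control by more than counting error, with no measure of the spread between control mice.

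Slc1a1 encodes EAAC1, the glutamate carrier of neurons (ENSMUSG00000024935.11, chr19:28835049-28913960, plus strand). It had 154 normalized CPM in the control, 171 at 1 h, 176 in library 1 at 4 h, 156 in library 2 and 135 at 8 h. The 8 h library was the lowest and library 1 the highest, with library 2 beside the control. The log2 fold changes were 0.15 (SE 0.20), 0.11 (SE 0.17) and -0.19 (SE 0.20). The value at 4 h was 0.02 without library 1 and turned to -0.02 with scaling by library size alone. Exons of 4430402I18Rik cover 31.9% of the exon length of Slc1a1 on the opposite strand, and that gene had 30 to 76 counts a library against 2360 to 3065 for Slc1a1.

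Among the 3 plasma membrane glutamate transporters, per kilobase, Slc1a2 held 71.8% in the control, 71.3% at 1 h, 70.6% in library 1 at 4 h, 70.4% in library 2 and 70.5% at 8 h. The split moved little, with library 1 beside library 2. Slc1a3 held 21.5% in the control (21.1 to 21.9) and 23.8% at 8 h (23.4 to 24.2), and Slc1a1 6.72% (6.50 to 6.96) and 5.72% (5.50 to 5.94).

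**Figure D2:**
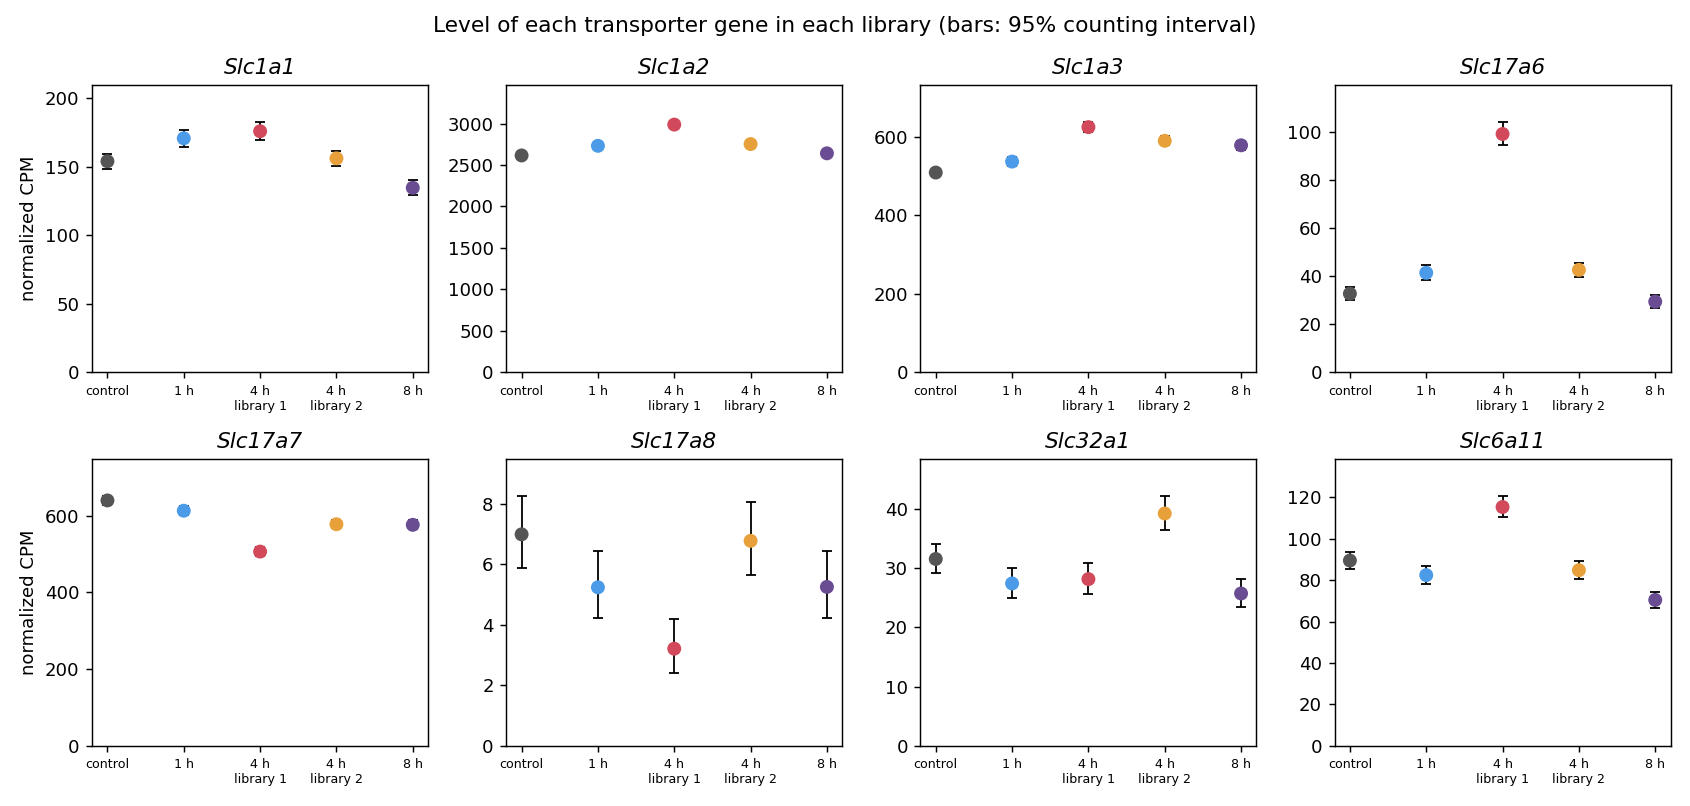
Normalized CPM of each of the 8 transporter genes in each library, 1 panel a gene with its axis from 0, points for libraries and bars for the 95% Poisson counting interval. Slc17a6 and Slc17a8 stand out in library 1 at 4 h (99.4 and 3.21 normalized CPM), and Slc1a2 lies between 2615 and 2987 in all 5 libraries.

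The astrocyte carriers can be set beside other astrocyte genes. The astrocyte list (9 genes, none at 0) summed to 1064 normalized CPM in the control, 1126 at 1 h, 1595 in library 1 at 4 h, 1449 in library 2 and 1321 at 8 h. Without Gfap the other 8 summed to 843, 854, 999, 939 and 734, so that their sum at 8 h lay below the control. Among these, Aqp4, Gjb6, Slc4a4 and Gja1 were below the control at 8 h, Gja1 at 0.507 of it. Aldh1l1, S100b, Sox9 and Fgfr3 were above it. The most abundant gene of the list in every library was Gfap, the intermediate filament of reactive astrocytes. It had 221, 272, 596, 510 and 587 normalized CPM in the same order of libraries. Gfap was thus more than 2 times the control in all 3 libraries at 4 h and 8 h, where Slc1a2 stayed within 1.14-fold of it. Its log2 fold change was 1.32 at 4 h (SE 0.19; 1.21 without library 1) and 1.41 at 8 h (SE 0.21), with unadjusted p of 0.000645 and 0.000772 and adjusted p of 0.242 and 0.756 by the quasi-likelihood test of edgeR, Benjamini-Hochberg adjusted. Counts of Slc1a2 per count of Gfap went from 11.8 in the control (11.5 to 12.2) to 10.1 at 1 h, then 5.01 in library 1, 5.39 in library 2 and 4.50 at 8 h (4.40 to 4.59).

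Gja1, the gap junction protein connexin 43 of astrocytes, had a different course, with 195, 175, 194, 202 and 98.6 normalized CPM. The 8 h library held 0.507 of the control level. Its log2 fold change at 8 h was -0.98 (SE 0.18, interval -1.44 to -0.52), with an unadjusted p of 0.00248 and an adjusted p of 0.882 by the quasi-likelihood test of edgeR, Benjamini-Hochberg adjusted, and Slc1a2 counts per Gja1 count were 26.8 at 8 h against 13.4 to 15.6 elsewhere. Astrocyte genes therefore lay on different sides of the control at 8 h, Gfap above and Gja1 below, with Slc1a2 and Slc1a3 in between. Of the 9 listed genes 7 were above the control in library 1 at 4 h and 8 in library 2, with median ratios of 1.31 and 1.26, and 5 at 8 h, with a median of 1.04. Aqp4 had 133 normalized CPM in the control, 214 and 177 in libraries 1 and 2 and 129 at 8 h, and Aldh1l1 had 58.8, 84.9, 76.9 and 61.3. The 8 h values come from 1 library, and whether another mouse would give the same was not tested.

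**Figure D3:**
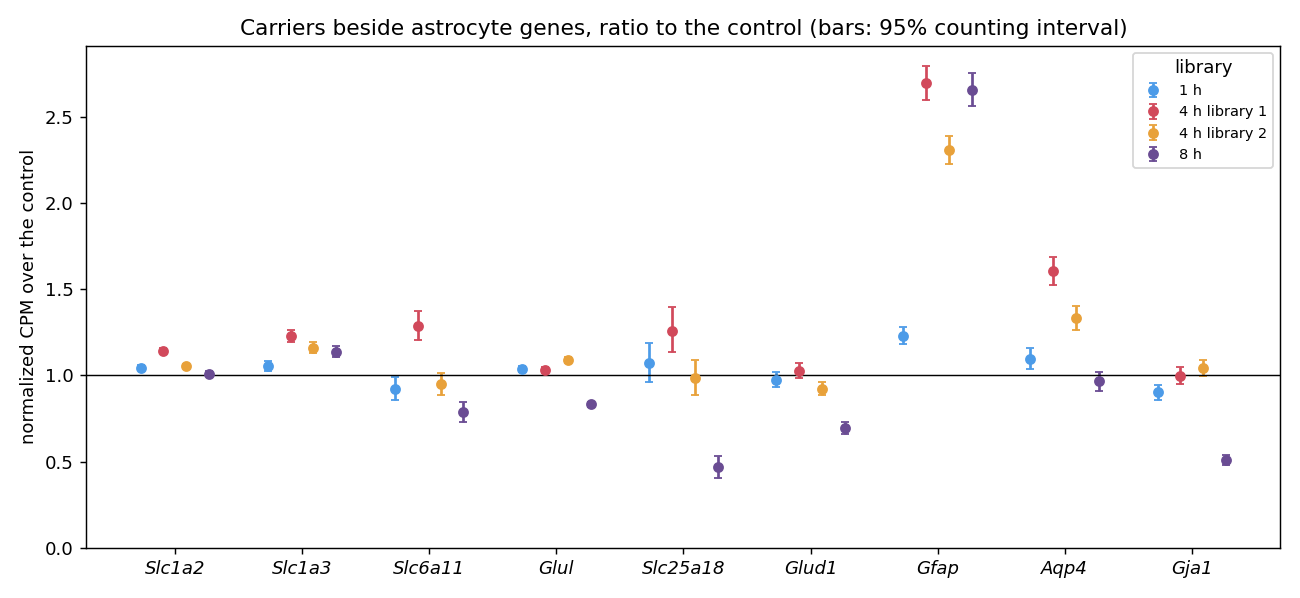
Ratio of normalized CPM to the control library for Slc1a2, Slc1a3 and Slc6a11 beside enzymes, a mitochondrial carrier and markers of astrocytes, with points for libraries, bars for exact 95% counting intervals and a line at 1. Gfap lies above 2 in both 4 h libraries and at 8 h, Gja1 and Slc25a18 near 0.5 at 8 h, and Slc1a2 between 1.01 and 1.14 throughout.

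Slc32a1 encodes VGAT, which loads GABA and glycine into vesicles and marks inhibitory terminals (ENSMUSG00000037771.11, chr2:158610767-158615748, plus strand). It had 31.6 normalized CPM in the control, 27.4 at 1 h, 28.2 in library 1 at 4 h, 39.2 in library 2 and 25.7 at 8 h. Library 2 was the highest, and the other 3 libraries after kainic acid lay below the control. The log2 fold changes were -0.20 at 1 h (SE 0.32), 0.09 at 4 h (SE 0.27, interval -0.59 to 0.78) and -0.29 at 8 h (SE 0.32). At 4 h the value was 0.31 without library 1, -0.16 without library 2 and -0.02 with scaling by library size alone, so that its direction was not settled. Exons of Gm14205 cover 24.9% of the exon length on the opposite strand, with 0 to 2 counts a library.

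The enzymes that make GABA, encoded by Gad1 and Gad2, had a course of their own at 4 h. Gad1 had 256 normalized CPM in the control, 317 at 1 h, 515 in library 1 at 4 h, 379 in library 2 and 274 at 8 h, and Gad2 had 103, 104, 150, 155 and 110. Both genes were higher than the control in both libraries at 4 h, whereas Slc32a1 was on opposite sides of it. At 4 h the log2 fold changes were 0.80 for Gad1 (SE 0.23) and 0.58 for Gad2 (SE 0.16), with unadjusted p of 0.0163 and 0.0151 and adjusted p of 0.352 and 0.350 by the quasi-likelihood test of edgeR, Benjamini-Hochberg adjusted. Without library 1 the values were 0.57 and 0.60. With no filter on low counts, where 1300 of 32732 genes were called at 4 h, Gad1 passed. Its adjusted p by the same test was 0.00254, in a range over the alternatives up to 0.396.

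Counts of Slc32a1 per count of Gad1 and Gad2 together were 0.0879 in the control (0.0809 to 0.0954), 0.0652 at 1 h, 0.0423 in library 1 at 4 h (0.0385 to 0.0464), 0.0733 in library 2 (0.0680 to 0.0790) and 0.0668 at 8 h. All 4 libraries after kainic acid lay below the control in this ratio, which does not depend on the scaling. The GABAergic interneuron list (9 genes, Gad1 and Gad2 included) summed to 634, 704, 963, 807 and 622 normalized CPM, with Gad1 its most abundant gene in every library. Without Gad1 and Gad2 the other 7 genes summed to 275, 283, 297, 272 and 237, near the control at 4 h and lower at 8 h.

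Slc6a11 encodes GAT3, the GABA carrier of astrocytes, with high levels in thalamus and lower ones in hippocampus (ENSMUSG00000030307.8, chr6:114131241-114249952, plus strand). It had 89.5 normalized CPM in the control, 82.4 at 1 h, 115 in library 1 at 4 h, 84.8 in library 2 and 70.5 at 8 h. Library 1, with its high thalamic markers, was again the highest, and the other 3 libraries after kainic acid lay below the control. The part of those markers was not tested for this gene either. The log2 fold changes were -0.12 at 1 h (SE 0.27), 0.16 at 4 h (SE 0.23, interval -0.42 to 0.75) and -0.34 at 8 h (SE 0.27), and at 4 h the value was -0.08 without library 1 and 0.37 without library 2.

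**Figure D4:**
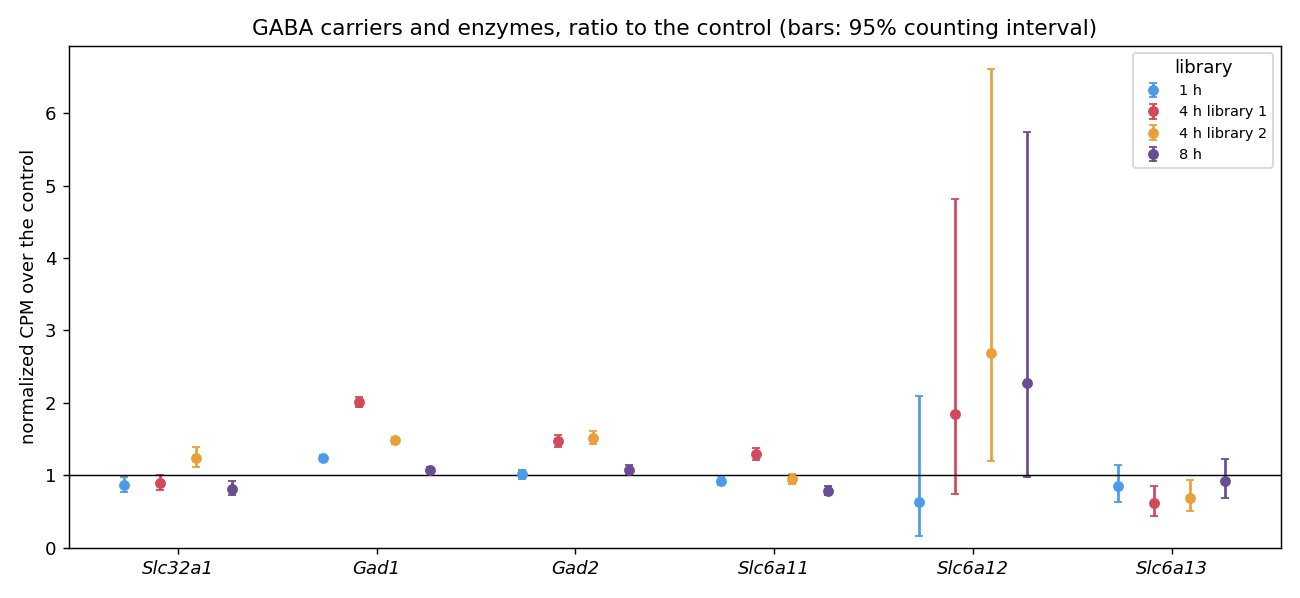
Ratio of normalized CPM to the control library for genes of GABA loading, synthesis and uptake, with points for libraries, bars for exact 95% counting intervals and a line at 1. Gad1 and Gad2 lie above the control in both 4 h libraries (2.01 and 1.48, 1.47 and 1.51), Slc32a1 on both sides of it (0.892 and 1.24), and the wide bars of Slc6a12 reflect 5 to 23 counts a library.

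Excitatory and inhibitory vesicular carriers can be compared in a library through Slc32a1 and Slc17a7. Per kilobase, Slc32a1 made up 8.68% of both in the control (8.06 to 9.34), 7.94% at 1 h (7.29 to 8.64), 9.68% in library 1 at 4 h (8.89 to 10.5), 11.6% in library 2 (10.8 to 12.4) and 7.93% at 8 h (7.25 to 8.64). Library 2 was above the control beyond counting error, and the intervals of the other 3 overlapped that of the control. By raw counts, without division by length, the shares were 4.70%, 4.28%, 5.27%, 6.36% and 4.27%, again highest in library 2.

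Per kilobase of exon, the order of levels in the control was Slc1a2 (199 normalized CPM per kilobase), Slc17a7 (119), Slc1a3 (59.6), Slc1a1 (18.7), Slc6a11 (17.7), Slc32a1 (11.3), Slc17a6 (6.06) and Slc17a8 (1.48). Slc1a2, Slc17a7 and Slc1a3 held the top 3 places in this order, and Slc17a8 the last, in all 5 libraries, with ranges that did not overlap. In the middle, Slc1a1 (16.3 to 21.3 over the 5 libraries) and Slc6a11 (14.0 to 22.8) overlapped, as did Slc32a1 (9.20 to 14.0) and Slc17a6 (5.44 to 18.4). Both pairs changed places in library 1 at 4 h, and the highest value of Slc32a1 met the lowest of Slc6a11. The highest value of Slc17a6, from library 1, also lay within the ranges of Slc1a1 and Slc6a11.

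None of the 8 genes passed an adjusted p under 0.05 at 1 h, 4 h or 8 h by the quasi-likelihood test of edgeR, Benjamini-Hochberg adjusted, and none had an unadjusted p under 0.05 at any of these times. DESeq2 and limma-voom called none of the 8 either. The fit with no filter on low counts called 1, Slc17a6 at 4 h, a time at which it called 1300 of 32732 genes. Over all 19768 genes the adjusted p was under 0.05 for 0 (0%) at 1 h, 1 (0.00506%) at 4 h and 0 (0%) at 8 h, and the unadjusted p for 478 (2.42%), 2291 (11.6%) and 892 (4.51%). DESeq2 called 49, 233 and 32 genes at these times, and limma-voom called 0 at each. The test has 1 residual degree of freedom, that of the 4 h libraries, and is moderated across genes. The spread of this pair thus enters the error at 1 h and 8 h as well. The pair differed in its thalamic sums (503 and 235) and choroid plexus sums (29.3 and 4280). The part of that difference in the error was not tested, and a lack of calls does not show that a gene was unchanged.

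By fold alone, 0 of the 8 genes were 1.5-fold higher than the control at 1 h and 0 were 1.5-fold lower, against 9.65% and 8.01% of all genes. In library 1 at 4 h 1 was higher (Slc17a6) and 1 lower (Slc17a8), against 20.1% and 15.8%. In library 2 none was past 1.5-fold in either direction, against 12.6% higher and 9.7% lower, and at 8 h none, against 12.7% and 8.11%. The libraries at 4 h lay more than 1.5-fold apart for 2 of the 8 (Slc17a6 and Slc17a8), against 22.9% of all genes. Without library 1, therefore, no transporter gene was 1.5-fold from the control in any library. The median log2 ratio of the 8 genes was 0.00 at 1 h, 0.19 in library 1, 0.05 in library 2 and -0.17 at 8 h, with medians over all genes of -0.01, -0.01, 0.00 and 0.01. At 8 h 6 of the 8 lay below the control, against 48.9% of all genes.

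**Figure D5:**
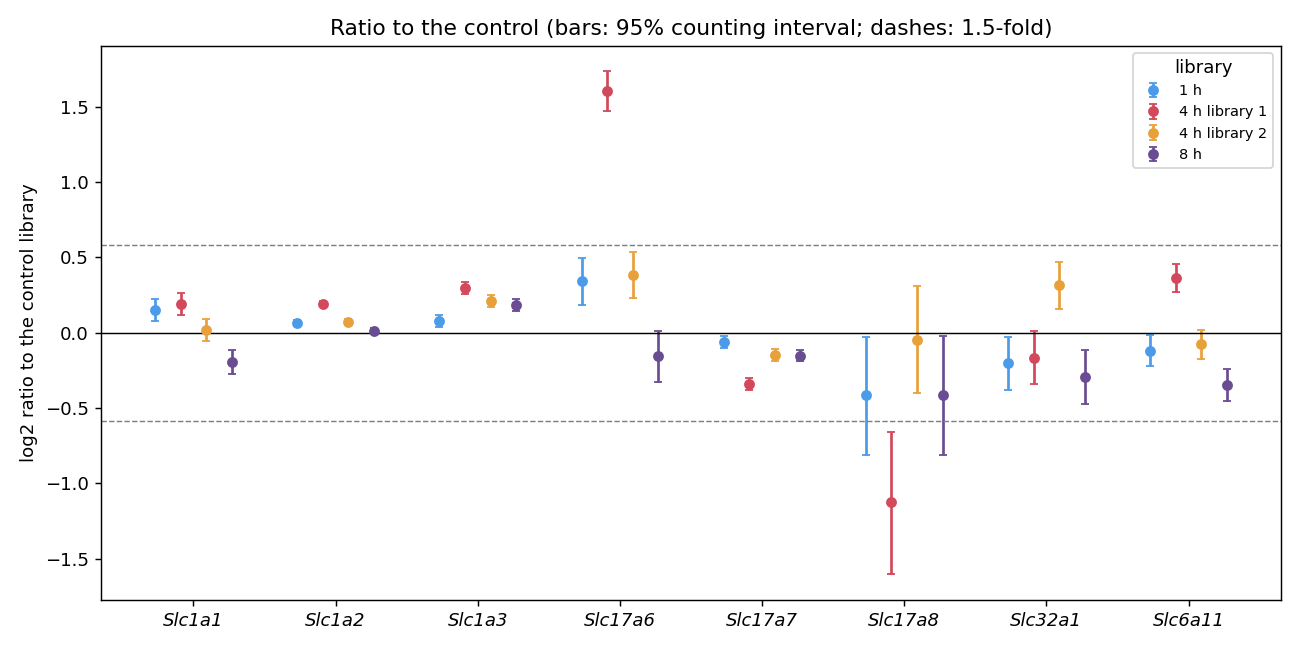
Log2 ratio of normalized CPM to the control library for the 8 transporter genes, with points for the 4 libraries after kainic acid, bars for exact 95% counting intervals and dashed lines at 1.5-fold. The 2 points, both of library 1 at 4 h, lie past the dashed lines, Slc17a6 above at 1.60 and Slc17a8 below.

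Other genes of the glutamate and GABA cycle give the setting. Of 24 such genes, 23 passed the filter, and the remaining gene, Slc1a7, had 0 to 2 counts a library. None of the 23 had an adjusted p under 0.05 at any time by the quasi-likelihood test of edgeR, Benjamini-Hochberg adjusted, and an unadjusted p under 0.05 was found for 0 at 1 h, 2 at 4 h (Gad1 and Gad2, both higher) and 2 at 8 h (Glud1 and Slc25a18, both lower), against 2.42%, 11.6% and 4.51% of all genes. Their median log2 fold changes at these successive times were -0.04, 0.09 and -0.17.

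Glul, the glutamine synthetase of astrocytes, had 1378, 1426, 1424, 1502 and 1146 normalized CPM, lowest at 8 h with a log2 fold change of -0.27 (SE 0.19). Its ratio to the control ran from 0.832 at 8 h to 1.09 in library 2. Slc25a18, a mitochondrial glutamate carrier of astrocytes, had 36.9, 39.4, 46.4, 36.2 and 17.2 normalized CPM. The 8 h library lay far below the others, at 0.466 of the control, with a log2 fold change of -1.10 (SE 0.28, interval -1.81 to -0.39), an unadjusted p of 0.00973 and an adjusted p of 0.946 by the quasi-likelihood test of edgeR, Benjamini-Hochberg adjusted. With no filter on low counts, where 279 of 32732 genes were called at 8 h, its adjusted p by the same test was 0.0257. The range over the alternatives went up to 1. Glud1, the mitochondrial glutamate dehydrogenase, had 230, 224, 236, 212 and 159 normalized CPM and was also lowest at 8 h, with a log2 fold change of -0.53 (SE 0.19).

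The highest log2 fold changes of the list at 1 h were those of Gls2 (0.72, SE 0.31), Gad1 (0.31) and Slc38a2 (0.29), and the lowest those of Slc6a12 (-0.51), Slc1a6 and Slc6a13 (-0.24 for both). Gls2, which encodes a glutaminase, had 28.0 normalized CPM at 1 h and 15.0 to 19.2 in the other 4 libraries. At 4 h the highest were Slc6a12 (1.02, SE 0.70), Slc25a13 (0.82, SE 0.42) and Gad1, and the lowest Slc6a13 (-0.60), Slc1a6 (-0.59) and Aldh5a1 (-0.38), the enzyme that completes the breakdown of GABA. Without library 1 these 4 h values were 1.24 for Slc6a12, 1.14 for Slc25a13, -0.52 for Slc6a13, -0.61 for Slc1a6 and -0.38 for Aldh5a1. Without library 2 they were 0.74, 0.42, -0.68, -0.57 and -0.38, so that the value of Slc25a13, with its pair of libraries over 1.5-fold apart, rested largely on library 2. At 8 h the highest were Slc38a5 (1.09, SE 0.73), Slc6a12 (1.02, SE 0.78) and Slc1a5 (0.84, SE 0.56), and the lowest Slc25a18, Slc1a6 (-0.72, SE 0.38) and Glud1. Slc1a6, the glutamate carrier EAAT4, had 8.44, 7.11, 5.64, 5.50 and 5.08 normalized CPM in the order used above, so that the control was its highest library. Slc6a12, the betaine and GABA carrier, rests on 9, 5, 14, 23 and 18 counts, and its ratio to the control of 2.69 in library 2 has a counting interval of 1.20 to 6.61.

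A search for the genes with the most similar pattern was made for the members whose log2 level had an SD of at least 0.3 over the 5 libraries, which were Slc17a6 (0.69) and Slc17a8 (0.44). The other 6 had SDs from 0.08 for Slc1a2 to 0.26 for Slc6a11. Among 11882 genes with a mean of at least 5 normalized CPM, the nearest to Slc17a6 were Pdp1, Cdh6 and Klf5, with root mean square differences of 0.05, 0.09 and 0.09 on the log2 scale over 5 libraries. Pdp1 had 80.9, 105, 242, 107 and 68.1 normalized CPM. The nearest to Slc17a8 were Ggh, Gas6 and Acaa2, each with a difference of 0.07. Gas6 had 109, 85.3, 54.5, 101 and 77.7 normalized CPM. These genes were picked for their likeness over the same 5 libraries, so a shared extreme in library 1 follows from the search.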

How the data were processed

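The authors prepared stranded libraries from hippocampal total RNA, aligned the paired reads with STAR 2.5.1b to GRCm38.p4 and deposited raw counts of reads per gene made with HTSeq, with no normalization (per the labels). The version of HTSeq, its strand setting and the annotation release are not given. Positions, exon lengths and overlaps came from GENCODE M21, in which the identifiers of all 8 genes were found with the same version.

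Counts were scaled by TMM (factors 1.04, 0.992, 0.924, 0.991 and 1.06), filtered with filterByExpr and fitted across all 19768 genes that passed in edgeR 4.0.16 (R 4.3.3), with 1 term a group, a quasi-likelihood test of each time against the control, prior count 2 and Benjamini-Hochberg adjustment over all genes. The biological coefficient of variation was 0.238, and 95% intervals of a log2 fold change are those of the estimate without the prior count. Gene counts per library ran from 16612225 to 19109204, and 3 counts correspond to 0.151 to 0.178 normalized CPM. Ratios to the control carry exact binomial intervals, levels Poisson intervals, and shares exact binomial (Clopper-Pearson) intervals on the counts. The fit was tested on simulated data.

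Alternatives were RLE scaling, library size alone, no filter, prior count 0.5, DESeq2 1.42.0, limma-voom (limma 3.58.1), leaving out each 4 h library, a 2-fold threshold, and shares of raw counts in place of counts per kilobase. From the cycle list Gad1, Gad2 and Glul were always named, with the 3 highest and 3 lowest log2 fold changes at each time. Genes named from 11 marker lists beyond this rule were chosen after their values were seen. In all, 4 genes of the cycle and marker lists were left out of the text and its counts. The members and lists were chosen with earlier results of these data known. Tables and plots were made in Python 3.11.15 with numpy 2.4.6, pandas 2.3.3, scipy 1.17.1 and matplotlib 3.10.9.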

Additional observations from a re-analysis of the deposited data

Results flagged for a closer look

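Reads that fell on no annotated gene, which no comparison uses, made up 24.7% of all reads in the control and a higher share in each library after kainic acid, with 29.0% at 1 h, 33.1% and 25.3% in libraries 1 and 2 at 4 h and 30.9% at 8 h. The highest share was in library 1, which also had the highest Slc17a6 level. The 2 did not run together elsewhere. The 8 h library, at 30.9%, had the lowest Slc17a6 level (29.4 normalized CPM), and library 2, at 25.3%, had 42.6. No replicate of the control measures the spread of this share.

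With TMM scaling, the 8 h library lay below the control for Slc1a1 and Slc17a6, while the 1 h library and both 4 h libraries lay above it. The share of all genes with this pattern was not counted. The log2 ratio at 8 h was -0.19 for Slc1a1, against 0.15 at 1 h and 0.19 and 0.02 at 4 h. Its ratio in library 2 was 1.01 (0.963 to 1.07), which does not set that library apart from the control, and with library size alone its 4 h log2 fold change was -0.02. For Slc17a6 the log2 ratio at 8 h was -0.15, against 0.34 at 1 h and 1.60 and 0.38 at 4 h. The difference between times was not tested for either gene.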

How the results depend on the processing

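Of 144 log2 fold changes of the 8 transporter genes recomputed with a test, 140 kept their direction and their side of the threshold. Part of this was fixed by the settings. Prior count 0.5 does not enter the test, so its 24 adjusted p repeat those of the main fit. RLE scaling and limma-voom called 0 of all genes at each time, so no side could change there. Scaling by library size alone, which moved the median of all genes to -0.11 at 4 h, turned Slc1a2 at 1 h to -0.01 and Slc1a1 and Slc32a1 at 4 h to -0.02 each. Leaving out a 4 h library gave -0.08 to 0.37 for Slc6a11, -0.16 to 0.31 for Slc32a1, 0.38 to 1.60 for Slc17a6 and -1.10 to -0.04 for Slc17a8, values with no test, and 2 of 16 such values reversed.

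With no filter on low counts 1 member was called at 4 h, Slc17a6. Genes called at 1 h, 4 h and 8 h numbered 57, 237 and 22 with library size alone, 285, 1300 and 279 with no filter and 49, 233 and 32 with DESeq2. At 4 h RLE scaling and limma-voom called 0. The cause of these differences was not tested.

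Under a 2-fold threshold the same counts as at 1.5-fold were found in every library, 1 higher and 1 lower in library 1 at 4 h. The shares of all genes past 2-fold were not counted. For the named cycle genes, added after seeing the data, 142 of 147 values with an adjusted p kept direction and side. As above, prior count 0.5, RLE scaling and limma-voom could not change the side. All 16 leave-out values kept direction, but they cover only Gad1, Gad2, Glul and the 4 h extremes. Some other cycle genes changed sign at 4 h between leaving out library 1 and leaving out library 2. These were Slc7a11 (-0.12, 0.77), Slc38a5 (1.05, -0.12), Slc38a3 (0.06, -0.48), Slc25a18 (-0.03, 0.33), Gls2 (-0.18, 0.17), Slc1a5 (0.15, -0.11) and Glud1 (-0.11, 0.04). The 3 values of Slc6a12 with DESeq2 had no adjusted p. By raw counts the shares of the vesicular glutamate genes stayed within counting error, and the control shares of Slc1a2, Slc1a3 and Slc1a1 were 79.8%, 15.5% and 4.70%. Library size alone turned Gad2 (-0.06) and Glul (-0.02) at 1 h, and Glul (-0.04) at 4 h. A single control and single libraries at 1 h and 8 h limit all comparisons.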

Other observations

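Marker lists of other cell types give the setting of the transporter levels. Oligodendrocyte markers (6 genes, the most abundant being Mbp) summed to 3341 normalized CPM in the control, 4165 at 1 h, 3936 in library 1 at 4 h, 5072 in library 2 and 3303 at 8 h. Microglia markers (4 genes, led by Csf1r) lay between 133 and 167 in all 5 libraries. Endothelial markers (4 genes, led by Flt1) had their highest sum in library 1, made up of Flt1 (70.2), Pecam1 (23.0), Cdh5 (18.1) and Cldn5 (13.7), against sums of 70.8 to 88.1 in the other 4 libraries. Flt1 and Cdh5 were highest there, and Pecam1 and Cldn5 were highest at 8 h (26.2 and 17.6).

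Neocortical neuron markers (6 genes) summed to 138, 155, 216, 127 and 114 normalized CPM. Library 1 had the highest sum, and 3 of the 6 genes were highest there (Fezf2, Rorb and Cux2), with Fezf2 at 73.1 against 24.9 to 39.6 elsewhere and Rorb at 54.7 against 22.9 to 29.7. Striatal markers (6 genes) summed to 49.8 to 77.8. The sum was highest in library 2, where Ppp1r1b had 42.5 against 17.6 in library 1, but 3 of the 6 genes were highest in library 1 (Drd1, Drd2 and Rgs9), with Drd1 at 20.9 against 15.7 in library 2. Meninges markers (6 genes, led by Dcn) summed to 47.8 to 79.2, with the highest sum in the control. No marker in these lists was at 0 in any library.

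Slc7a11, the cystine and glutamate exchanger of astrocytes, had 77.6 normalized CPM in the control, 78.4 at 1 h, 133 in library 1 at 4 h, 71.3 in library 2 and 68.2 at 8 h, and was named after its values were seen. Its level in library 2 lay beside the control, and library 1 was the highest of the 5 libraries.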
